A study of Bos taurus with 9 samples.

Results

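The AP-1 and immediate early genes described here are FOS, FOSB, JUN, JUNB, ATF3, EGR1, MYC, IER2, DUSP1 and SGK1. They were taken by gene symbol, as every probe whose symbol in the platform annotation is 1 of these 10, which gave 14 of the 43794 probes on the array. FOSB had 3 probes, FOS and IER2 had 2 probes each and the other genes had 1 each. All 14 probes passed the filter on dim probes, and each gene is represented below by its brightest probe unless another probe is named. The cells were granulosa cells of dominant follicles of Holstein-Friesian cows, taken by ovum pick-up 42 hours after an injection of prostaglandin F2 alpha. The days compared were 30, 60 and 90 days after calving, each against 120 days. On each of 9 arrays the RNA of 30, 60 or 90 days was labelled with Cy5 and 120-day RNA with Cy3, with 3 arrays per day. All comparisons rest on the days by which the arrays are named, and other deposited values disagree with some of these names, as described below. The labels count the replicates as biological but do not say how many cows stand behind an array, nor the cows' ages or any sort of the cells, so p-values measure the spread between these arrays.

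Immediate early genes are transcribed within minutes of a stimulus from proteins already in the cell, and their mRNAs are short-lived. FOS and JUN family proteins dimerise through leucine zippers into AP-1, a transcription factor driven by MAP kinases. In granulosa cells these genes are known as early responders to gonadotrophins and growth factors, and several are also induced when cells are handled or leave their tissue.

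A ratio below is log2 of Cy5 over Cy3, so a negative ratio is a lower signal on that day than at 120 days. A level is the normalised log2 signal of 1 channel, and levels of different genes are not set against each other. The dyes were never swapped: a probe that favours Cy5 or Cy3 carries this bias into its ratio to 120 days, but not into a contrast of days where the bias is the same on all arrays.

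At 60 days, 2 of the 10 genes passed the test against 120 days (limma, Benjamini-Hochberg adjusted p below 0.05 over all probes), and both were lower: SGK1 and FOS. The same test called 13.2% of all 14281 genes, 7.1% as lower and 6.1% as higher. The median ratio of the 10 genes was -1.16, beside -0.05 over all genes, and 9 of the 10 fitted ratios were below 0. That median leaned on 1 array: without 60 days replicate 2 it was -0.40, with 8 of 10 below 0. At 30 days no member passed, beside 0.287% of all genes, and the median ratio was -0.05. At 90 days no member passed either, beside 0.007% of all genes, and the median ratio was -0.41. At an unadjusted p below 0.05 the members numbered 0 at 30 days, 4 at 60 days and 1 at 90 days, beside 21%, 31.2% and 11.5% of all genes.

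**Figure D1:**
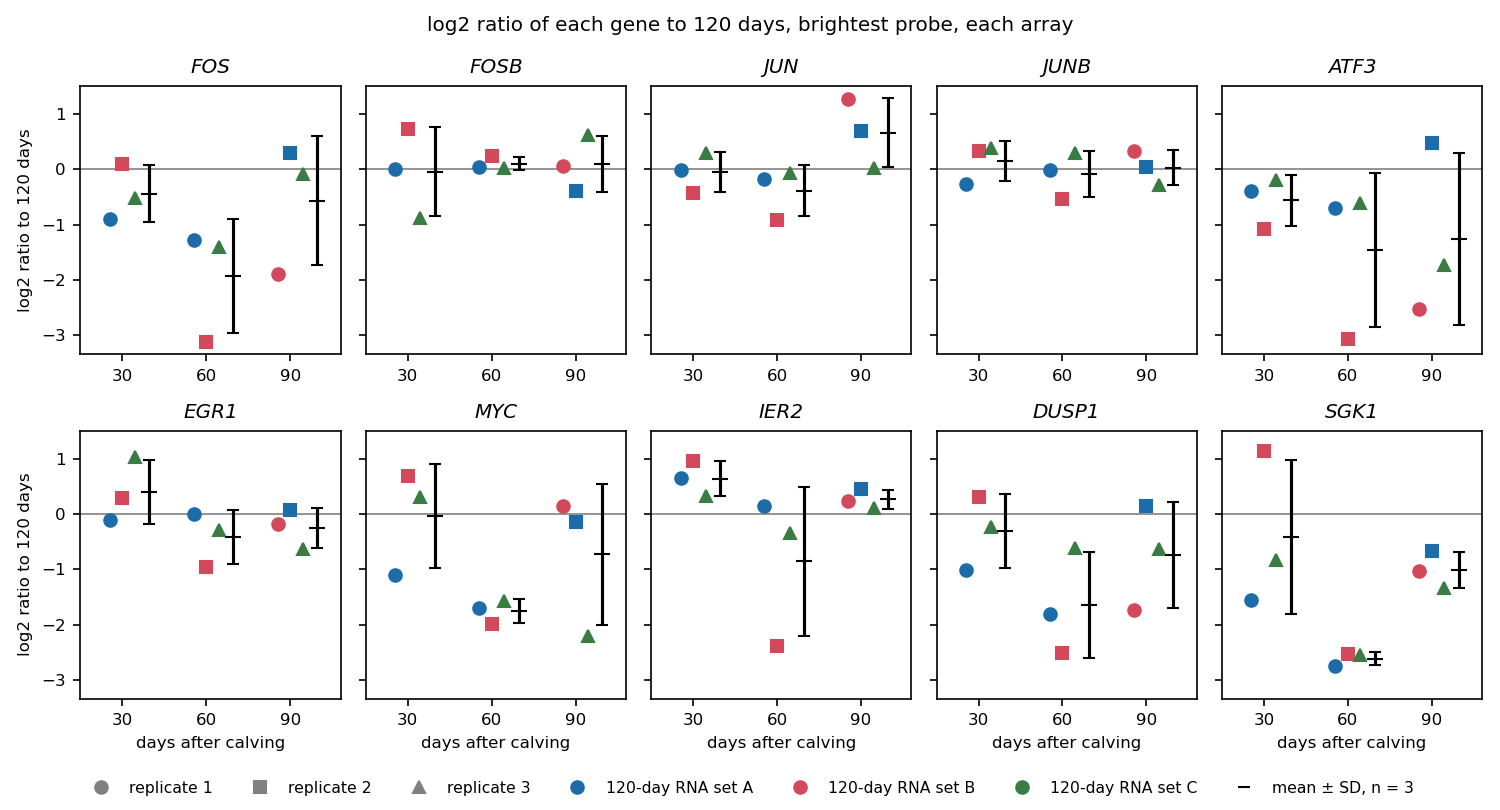
The log2 ratio to 120 days of each gene's brightest probe (y axis) on each array, by day after calving (x axis). The marker shape gives the replicate, the colour gives the set of arrays with like 120-day channels, and bars are mean ± SD (n = 3). SGK1 at 60 days lies between -2.75 and -2.54 on its 3 arrays, while FOS and ATF3 at 60 days run down to -3.11 and -3.07 on 1 array.

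SGK1, a serum- and glucocorticoid-induced kinase that regulates ion transport and cell survival, was the lowest of the members at 60 days. Its ratios at 30 days were -1.56, 1.14 and -0.83 on replicates 1, 2 and 3. At 60 days they were -2.75, -2.54 and -2.56. Its ratios at 90 days were -1.04, -0.67 and -1.33. All 3 arrays of 60 days lay close together and below every array of the other days, whereas those of 30 days lay on both sides of 0. The fitted ratio at 60 days was -2.61 ± 0.43 (SE, n = 3), a 6.12-fold lower signal than at 120 days (limma adjusted p = 0.0140). The Cy5 signal of SGK1 was above background on all 3 arrays of 60 days. On replicate 1 it was so by little, with a raw signal of 187.3 against a threshold of 159.1. The size of the fold and the closeness of the 3 ratios are thus less certain. At 90 days the ratio was -1.01 ± 0.43 (limma adjusted p = 0.44), below 0 on 3 of 3 arrays, and at 30 days -0.42 ± 0.43 (limma adjusted p = 0.59). The call at 60 days was lost without 60 days replicate 1 (limma adjusted p = 0.0828) or replicate 3 (limma adjusted p = 0.0761), when only the arrays of 60 days were fitted (limma adjusted p = 0.0555), and with the granulosa marker median as a covariate (-2.19, limma adjusted p = 0.0516).

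FOS, the AP-1 subunit that must pair with a JUN protein to bind DNA, was also lower at 60 days. Its ratios were -0.90, 0.10 and -0.51 at 30 days, then -1.28, -3.11 and -1.40 at 60 days. At 90 days they were -1.90, 0.29 and -0.09. The arrays of 60 days were all below 0, and replicate 2 was far below the other two. The fitted ratio at 60 days was -1.93 ± 0.49 (SE, n = 3), or 3.81-fold lower than at 120 days, with a limma adjusted p of 0.0427. This call stood close to the threshold: it held under 6 of 24 alternative settings, over which the adjusted p ran from 0.0326 to 0.149. Without 60 days replicate 2 the ratio was -1.34 (limma adjusted p = 0.149).

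A second FOS probe gave another picture. Its ratios were 0.21, -0.38 and 0.14 at 30 days, then 0.48, -0.05 and -0.03 at 60 days, and for 90 days -0.29, 0.13 and 1.04. Its fitted ratio at 60 days was 0.13 ± 0.25 (limma adjusted p = 0.74), and it followed the brightest probe weakly over the 9 arrays (r = 0.27). The average of both probes was not called (-0.90, limma adjusted p = 0.112). The sources used here do not give which part of the transcript each probe reads, so the fall of FOS rests on 1 of 2 probes.

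MYC, a transcription factor of growth and proliferation, had ratios of -1.10, 0.68 and 0.30 at 30 days. At 60 days they were -1.71, -1.99 and -1.56, and at 90 days 0.15, -0.15 and -2.20. As with SGK1, the arrays of 60 days lay close together, and only 90 days replicate 3 was lower. The fitted ratio at 60 days, -1.75 ± 0.48 (SE, n = 3), narrowly missed the threshold (limma adjusted p = 0.0521), with a 95% interval of -2.89 to -0.62. It passed under 5 of the 24 alternatives.

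DUSP1, the phosphatase that switches off MAP kinases and is itself induced by them, had ratios of -1.01, 0.31 and -0.23 at 30 days. Its ratios were -1.80, -2.52 and -0.61 at 60 days, with -1.74, 0.15 and -0.63 at 90 days. All arrays of 60 days were below 0, yet replicate 3 lay within the range of the other days. The fitted ratio at 60 days was -1.64 ± 0.46 (SE, n = 3) and missed the threshold (limma adjusted p = 0.0528).

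ATF3, a stress-induced partner of JUN proteins, had the largest SE of the members. Its ratios were -0.39, -1.08 and -0.20 at 30 days, then -0.70, -3.07 and -0.61 at 60 days. At 90 days they were -2.52, 0.48 and -1.74. It was below 0 on 8 of 9 arrays, and its fitted ratio at 60 days, -1.46 ± 0.65 (SE, n = 3), did not pass (limma adjusted p = 0.17). Without 60 days replicate 2 it was -0.65. At 30 and 90 days it was -0.56 ± 0.65 and -1.26 ± 0.65.

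IER2, a nuclear immediate early protein, was above 0 on 7 of 9 arrays by its brightest probe. Its ratios were 0.65, 0.95 and 0.32 at 30 days, then 0.15, -2.38 and -0.34 at 60 days, and for 90 days 0.23, 0.44 and 0.11. The low value of 60 days replicate 2 set it apart from the other 8 arrays, and the fitted ratio at 60 days was -0.86 ± 0.42 (limma adjusted p = 0.20). Without that array it was -0.10. The second IER2 probe was below 0 on all 9 arrays, from -1.39 to -0.40. At 60 days that probe had ratios of -1.03, -0.93 and -1.39, and it was called lower (-1.12 ± 0.14, limma adjusted p = 0.0090). The probe was dim there: its Cy5 levels were 7.57, 7.75 and 7.62, and its 120-day signal was not above background on replicate 3. It was below 0 on the other days too, with means of -0.83 at 30 days and -0.59 at 90 days. A sign shared by all 9 arrays was found for 14.6% of all probes, and a dye bias of this probe was not tested.

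JUN, the AP-1 subunit that can pair with itself or with FOS, was dim. Its Cy5 signal was above background on 2 of 3 arrays at 30 days, on 0 of 3 at 60 days and on 2 of 3 at 90 days. Its ratios were -0.02, -0.42 and 0.30 at 30 days, then -0.18, -0.91 and -0.06 at 60 days. At 90 days they were 1.27, 0.69 and 0.02. All 3 arrays lay below 0 at 60 days and all 3 above 0 at 90 days. Since JUN was not well above background at 60 days, its level there is only a bound, and with unswapped dyes the bound is open to dye bias. The 120-day signal of JUN was above background on 1 of those 3 arrays, replicate 2, so no fold is given for 60 against 120 days (limma adjusted p = 0.34). At 90 days the measured mean level of JUN was 2.14-fold higher than at 60 days (8.61 and 7.51), with a limma adjusted p of 0.47 for the contrast of ratios. Against 120 days the fitted ratio at 90 days was 0.66 ± 0.26 (limma adjusted p = 0.41), the member with the unadjusted p below 0.05 on that day.

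None of EGR1, JUNB and FOSB passed on any day by its brightest probe. EGR1, a zinc finger factor induced by the luteinising hormone surge, ran from -0.11 to 1.02 at 30 days, from -0.95 to 0.00 at 60 days and from -0.64 to 0.07 at 90 days. Its fitted ratio at 60 days was -0.41 ± 0.26 (95% interval -1.01 to 0.18). JUNB, a JUN relative that can oppose JUN, had the smallest range of any member by its brightest probe, from -0.53 to 0.39 over all 9 arrays. Its 95% interval at 60 days was -0.54 to 0.38, so a fall as large as that of FOS lay outside it.

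FOSB, a FOS relative, had 3 probes that differed. The brightest ran from -0.88 to 0.73, with 0.10 ± 0.29 at 60 days (limma adjusted p = 0.83). The second lay above 0 throughout, with ratios of 0.35, 1.21 and 0.76 at 30 days, then 0.97, 0.53 and 1.01 at 60 days, and for 90 days 0.29, 0.91 and 0.32. It was called higher at 60 days (0.84 ± 0.19, limma adjusted p = 0.0310). The third had Cy5 above background on 1 of 9 arrays, so its small negative ratios are close to a ratio of background signals, although the test called it at 60 days (limma adjusted p = 0.0400). The brightest and the second probe did not follow each other over the arrays (r = -0.03), and no direction is given for FOSB. Counted over any probe, 4 of the 10 genes were called at 60 days, beside 17.5% of all genes, and 5 of the 14 probes, beside 14.3% of all probes. At 30 and 90 days 0 of the 14 probes were called, beside 0.203% and 0.00258% of all probes.

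**Figure D2:**
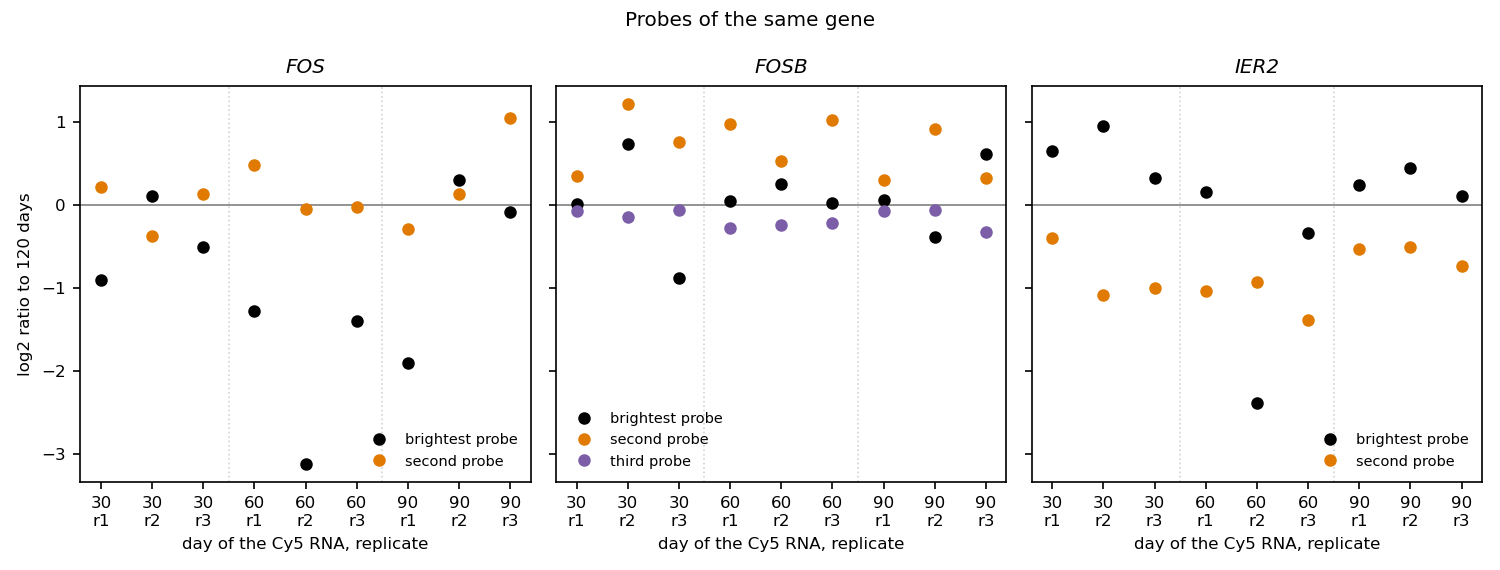
The log2 ratio to 120 days (y axis) of every probe of FOS, FOSB and IER2 on each array (x axis, day of the Cy5 RNA and replicate), 1 point per probe and array. The second IER2 probe lies below 0 and the second FOSB probe above 0 on all 9 arrays, and the second FOS probe does not follow the brightest on the arrays of 60 days.

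**Figure D3:**
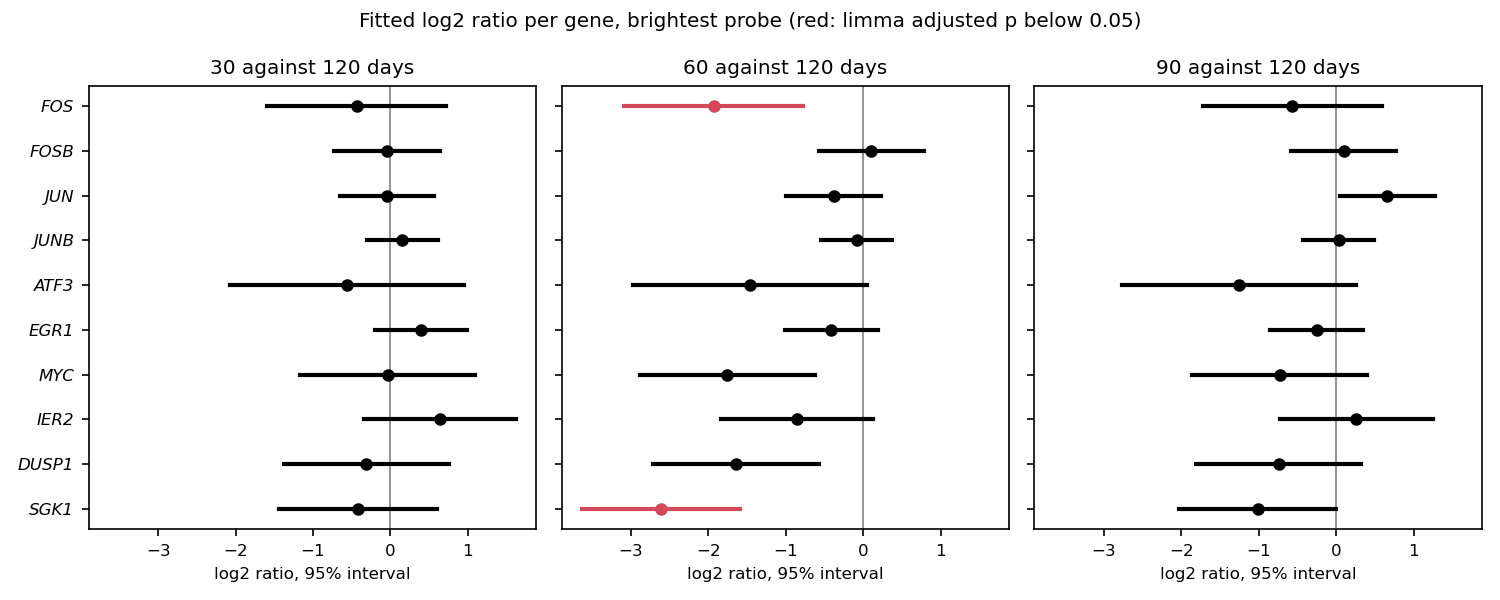
The fitted log2 ratio of each gene's brightest probe (x axis, points) with its 95% interval (lines), for 30, 60 and 90 days against 120 days. At 60 days 9 of 10 points lie left of 0, and the 2 in red, FOS and SGK1, passed the threshold.

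A ratio can be low because the day's own signal was low or because its 120-day signal was high, so both channels were read for each gene. The Cy3 channels of the arrays fell into 3 sets by their correlation, here called A, B and C, each with 1 array of every day. The first replicates of 30 and 60 days shared set A with 90 days replicate 2. Set B joined 90 days replicate 1 to the second replicates of 30 and 60 days, and the replicates numbered 3 made up set C. The correlation of raw log2 Cy3 signals over probes was 0.97 to 0.99 within sets and 0.88 to 0.96 between them. The sets were cut from this same correlation at a chosen number of 3, so its higher values within sets are no test of them. Each set may thus stand for 1 preparation of 120-day RNA, which is read from the signals and not stated in the labels.

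The 120-day signals of the members were far from uniform between these sets. FOS had mean Cy3 levels of 9.34 in set A, 11.75 in set B and 10.45 in set C. Its SD within sets was 0.10, while the SD of the 3 set means was 1.21. ATF3 ranged as widely, with 8.43, 11.30 and 10.37 in sets A, B and C. The lowest ratios of FOS and ATF3, on 60 days replicate 2 and 90 days replicate 1, both belonged to set B, where the 120-day signal of both genes was highest. The remaining array of set B, 30 days replicate 2, also had high 120-day levels of FOS (11.61) and ATF3 (11.16). Its ratios were 0.10 for FOS and -1.08 for ATF3. IER2 (10.74, 12.15 and 11.69) and DUSP1 (9.88, 10.76 and 9.64) were highest in set B too, and MYC (9.60, 10.47 and 10.79) and SGK1 (10.17, 10.39 and 11.10) in set C.

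In the Cy5 channel, SGK1 had levels of 7.56, 7.97 and 8.51 at 60 days, against 10.31, 10.50 and 11.06 for 120-day RNA on the same arrays. Its Cy5 levels were 8.49, 11.31 and 10.31 at 30 days, with 9.45, 9.48 and 9.76 at 90 days. In the day's own channel, every SGK1 level of 60 days lay below all those of 90 days, and 1 array of 30 days, replicate 1, lay among those of 60 days. FOS had Cy5 levels of 8.15, 8.70 and 8.94 at 60 days, against 9.43, 11.82 and 10.33 for 120-day RNA. Its Cy5 levels were 8.38, 11.71 and 10.01 at 30 days, with 9.91, 9.60 and 10.41 at 90 days. The 3 arrays of 60 days spanned 0.79 in the day's channel and 2.39 in the 120-day channel, so the wider spread was in the 120-day channel.

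MYC had Cy5 levels of 7.98, 8.59 and 9.07 at 60 days, against 9.69, 10.58 and 10.64 for 120-day RNA. At 30 days replicate 1 the Cy5 signals of FOS, ATF3, MYC, SGK1, EGR1, JUNB and JUN were not above background. On that array 29.8% of probes were above background in Cy5, the lowest share of the 9 arrays. The Cy3 signals of EGR1, FOSB, JUN, JUNB and the second FOS and IER2 probes were not above background on 60 days replicate 3. On that array 20.9% of probes were.

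**Figure D4:**
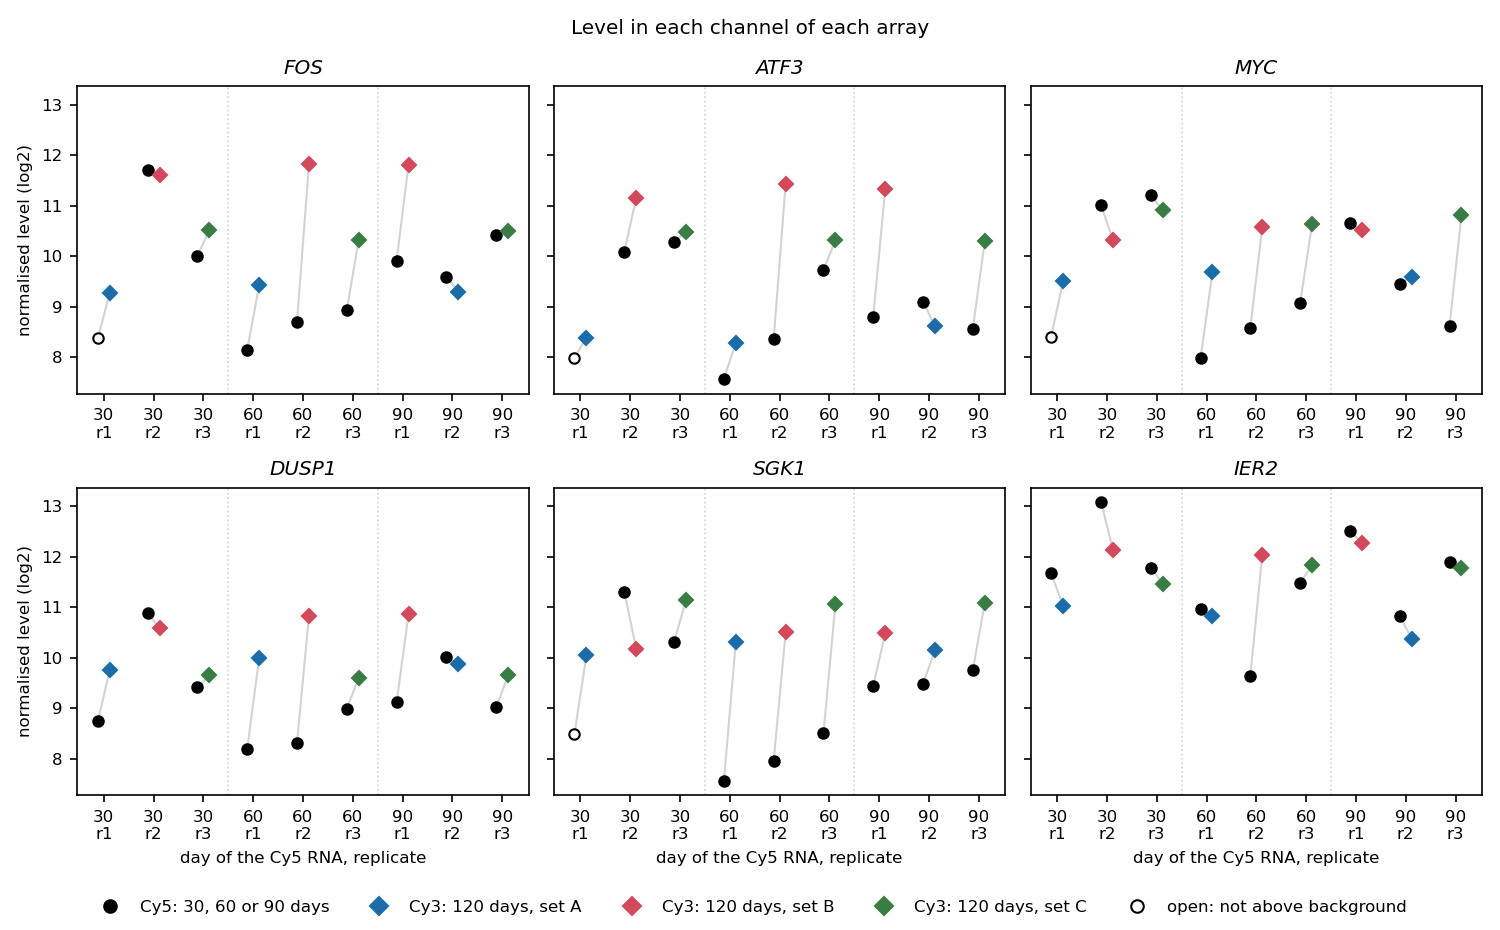
The normalised log2 level (y axis) of 6 genes in both channels of each array (x axis, day of the Cy5 RNA and replicate): circles are the Cy5 RNA of 30, 60 or 90 days, diamonds the 120-day RNA coloured by set, and grey lines join the channels of an array. FOS and ATF3 in 120-day RNA sit near the top in set B and near the bottom in set A, while SGK1 at 60 days lies between 7.56 and 8.51, below its 120-day level on each array.

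The day pairs were contrasted in the same fit, in which a constant dye effect of a probe cancels. No member passed in any pair or in the F test of any difference among the days, and neither did any other gene (0%). At an unadjusted p below 0.05, the members numbered 3 for 60 against 30 days, 2 for 90 against 60 days, 0 for 90 against 30 days and 1 in the F test. The shares of all genes at that threshold were 11.8%, 10.1%, 5.72% and 9.78%. The contrast of SGK1 at 60 against 30 days was -2.19 ± 0.61 (limma unadjusted p = 0.0084, adjusted p = 0.35). Against 60 days, SGK1 at 90 days differed by 1.60 ± 0.61 (limma adjusted p = 0.48). MYC (-1.72 ± 0.68) and IER2 (-1.50 ± 0.59) were the other members below an unadjusted 0.05 for 60 against 30 days, and JUN (1.04 ± 0.37) the other for 90 against 60 days.

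Within the sets of like 120-day signal, 7 of the 10 genes were lower at 60 than at 30 days in all 3 sets, beside 22.9% of all genes. These were FOS, JUN, ATF3, MYC, IER2, DUSP1 and SGK1. In set A the array of 30 days was replicate 1, where the Cy5 signals of FOS, JUN, ATF3, MYC and SGK1 were not above background. The direction of these genes in set A thus rests on a signal that was not detected, and JUN was not detected at 60 days either. At 90 against 60 days FOS, JUN, IER2 and SGK1 were higher in all 3 sets, beside 23% of all genes. At 90 against 30 days IER2 was lower in all 3 sets, beside 12.6%. These 3 pairs of days share arrays. SGK1 at 60 minus 30 days was -1.19 in set A, -3.67 in set B and -1.72 in set C, and at 90 minus 60 days 2.07, 1.50 and 1.23. FOS at 60 minus 30 days was -0.38, -3.22 and -0.89, and at 90 minus 60 days 1.58, 1.22 and 1.31. MYC at 60 minus 30 days was -0.61, -2.68 and -1.86, while at 90 minus 60 days it was 1.56, 2.14 and -0.63. DUSP1 at 60 minus 30 days was -0.79, -2.83 and -0.38. The arrays of 60 days did not overlap those of 30 days for 4 of the 10 genes (FOS, MYC, IER2 and SGK1), beside 19.4% of all genes, and those of 90 days for JUN and SGK1, beside 16.9%. Between 90 and 30 days the arrays overlapped for all 10 genes, where 12.1% of all genes did not overlap. With the set as a block in the fit, the genes called at 60 against 120 days were again SGK1 and FOS.

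Taken over all 10 genes, the arrays of 1 day differed. The median of the 10 ratios was -0.33, 0.32 and 0.05 on the arrays of 30 days and -0.44, -2.19 and -0.47 on those of 60 days. On the arrays of 90 days it was -0.06, 0.11 and -0.46. Replicate 2 of 60 days stood apart, with 9 of 10 genes below 0. The genes below 0 on all 3 arrays of a day numbered 1 at 30 days, 6 at 60 days and 1 at 90 days, beside 27.1%, 32.3% and 17.6% of all genes. Those above 0 on all 3 numbered 1 at 30 days (IER2), 1 at 60 days (FOSB) and 2 at 90 days (JUN and IER2), beside 20.1%, 25.1% and 15.6%.

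Markers of granulosa and other cells differed between the same arrays. All 13 granulosa markers were above background on some arrays in both channels, and 10 to 13 of them on each array in Cy5. INHBA, the inhibin beta A subunit, and SERPINE2, a protease inhibitor of follicles, were above background in both channels of all 9 arrays. The log2 of the summed level of the 13 markers was 13.98 to 17.30 at 30 days, 17.36 to 17.63 at 60 days and 14.55 to 17.66 at 90 days, against 15.79 to 17.22 for 120-day RNA. The median granulosa ratio was 0.44, -3.30 and -2.73 at 30 days, then 0.83, 1.89 and 1.56 at 60 days, and for 90 days -2.18, 0.85 and 0.24. Replicates 2 and 3 of 30 days and replicate 1 of 90 days thus had low granulosa markers.

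Those 3 arrays had the highest macrophage and monocyte markers. The median ratio of the 14 measured macrophage markers was -1.23, 2.48 and 1.91 at 30 days. It was -0.89, -0.09 and -0.42 at 60 days, with 2.08, 0.56 and 0.24 at 90 days. The log2 of their summed level was 12.84 to 17.36 at 30 days, 13.00 to 14.45 at 60 days and 15.34 to 17.03 at 90 days, against 14.78 to 15.84 for 120-day RNA. ITGAM was the macrophage marker above background in no Cy3 channel. Every macrophage marker was above background in at least 1 Cy5 channel.

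Markers of lymphocytes, neutrophils and epithelium were low at 60 days, as SGK1, FOS and MYC were. The median ratio of the 15 measured lymphocyte markers came to -1.06, 0.64 and 0.01 at 30 days, then -2.17, -1.47 and -1.70 at 60 days, and for 90 days 1.53, -0.68 and -0.49. At 60 days 7 of the 15 fell, 0 rose and 8 did not pass (limma). GZMB, a granule protease of cytotoxic lymphocytes, went against this, with 0.70, 0.87 and 0.46 at 60 days. The log2 of their summed level was 13.48 to 14.48 at 60 days, against 14.57 to 14.96 for 120-day RNA on those arrays. Of the 10 measured neutrophil markers 3 fell at 60 days and 9 had a fitted ratio below 0, with a median of -1.02, beside -0.28 at 30 days and -0.25 at 90 days. Of the 10 epithelial markers 3 fell at 60 days and 9 were below 0, with a median of -1.68, beside -1.27 at 30 days and -1.50 at 90 days. The 10 theca and stromal markers had a median of -1.02 at 60 days too, with 6 below 0, 1 risen and 0 fallen. Of the 14 macrophage markers 12 were below 0 at 60 days (median -0.39) and 0 passed. The epithelial markers had their lowest median on 60 days replicate 2 (-3.10), the array with the lowest FOS and ATF3. The part of these cell types in the members' ratios was not tested beyond the covariates. In bulk RNA, fewer cells of a type and less RNA per cell cannot be told apart.

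With the macrophage marker median as a covariate, SGK1 at 60 days was -2.40 (limma adjusted p = 0.0156), MYC -1.51 (limma adjusted p = 0.0430) and FOS -1.98 (limma adjusted p = 0.0600). With the granulosa marker median in its place, SGK1 was -2.19, MYC -1.17 (limma adjusted p = 0.164) and FOS -2.05 (limma adjusted p = 0.103). The 3 arrays of high macrophage markers belong to 30 and 90 days, so leaving them out cannot move the ratios at 60 days and changes only the error estimated from fewer arrays. SGK1 was then called (limma adjusted p = 0.0323) and FOS was not (limma adjusted p = 0.0832).

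**Figure D5:**
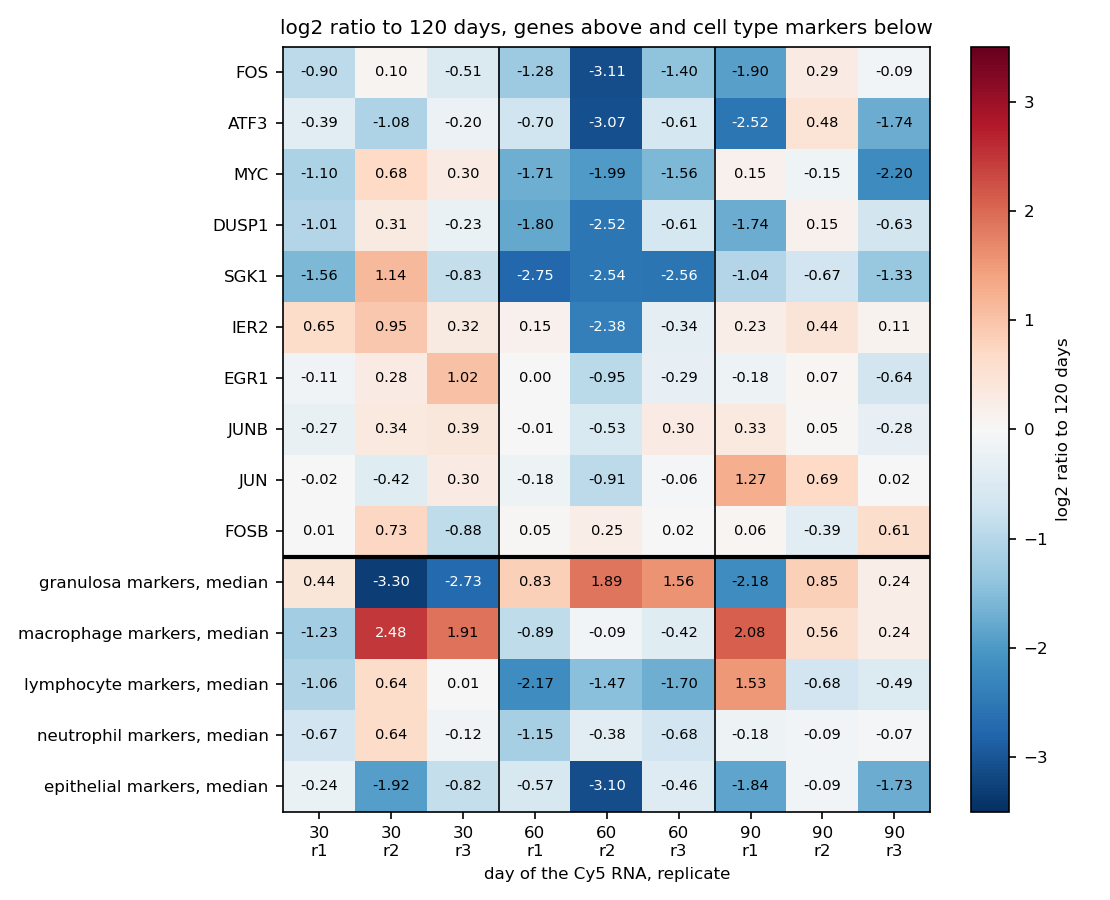
The log2 ratio to 120 days of the 10 genes and, below the line, the median ratio of 5 lists of cell type markers, on each array (x axis, day of the Cy5 RNA and replicate), with blue lower and red higher than 120 days. SGK1 and the lymphocyte median are both low on the 3 arrays of 60 days, and the macrophage median is highest on 30 days replicates 2 and 3 and 90 days replicate 1.

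Of 7 lists of related genes, 122 of 134 members were measured. At 60 days 3 of these rose, 16 fell and 103 did not pass, a called share of 15.6% beside 13.2% of all genes. At 30 and at 90 days 0 passed. Of the 18 called genes chosen for naming, 11 kept their call under 12 or fewer of the 24 alternatives: DUSP7, SPRY1 and FKBP5 under 7, RICTOR under 8, CEBPD under 9, GADD45A, PLK2 and FOXO1 under 10, and MAP3K1, MAFF and HES1 under 12.

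Among the other AP-1 subunits, 1 of 13 measured genes rose and 3 fell at 60 days, with a median ratio of -0.12. ATF4, the amino acid and stress response factor, had ratios of -1.56, -0.98 and -0.95 at 60 days (-1.16 ± 0.22, limma adjusted p = 0.0203). It was below 0 on 8 of 9 arrays. The small MAF proteins, partners without an activation domain, did not move together. MAFG was the one that rose (1.66 ± 0.31, limma adjusted p = 0.0182), and its ratio was above 0 on all 9 arrays. MAFK (-0.38 ± 0.07) and MAFF (-0.39 ± 0.09) fell by small amounts (limma adjusted p = 0.0173 and 0.0341).

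Of the other immediate early transcription factors, 0 of 21 rose and 2 fell, with a median ratio of -0.24. CEBPD, a bZIP factor of acute responses, was at -1.51, -1.75 and -1.89 at 60 days (-1.72 ± 0.44, limma adjusted p = 0.0433). Its ratios were -1.99, -0.49 and 0.12 at 30 days, with -1.23, 0.01 and -1.88 at 90 days, so the days overlapped. HES1, a Notch target and repressor, was at -0.42 ± 0.09 (limma adjusted p = 0.0294), and below 0 on all 9 arrays.

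Of the other immediate early effectors, 0 of 28 rose and 5 fell, with a median ratio of -0.34. ZFP36L2, which destabilises AU-rich mRNAs, was lower on every array of 60 days than on any other array, with ratios of -1.61, -2.12 and -1.28 (-1.67 ± 0.19, limma adjusted p = 0.0080). Its ratios were -0.96, -0.41 and -0.34 at 30 days, with 0.50, -0.03 and 0.01 at 90 days. Its call held under 23 of the 24 alternatives, the most of the 18 named genes. GADD45A, a growth arrest and DNA damage protein, had the lowest fitted ratio of the named genes (-2.71 ± 0.64, limma adjusted p = 0.0348), with -1.43, -4.68 and -2.03 on the arrays of 60 days. NFKBIZ, an inducible regulator of NF-kappa B targets, was at -1.40 ± 0.21 (limma adjusted p = 0.0115), and PLK2, a stress-responsive kinase, at -0.77 ± 0.19 (limma adjusted p = 0.0381). GADD45A, NFKBIZ and PLK2 were below 0 on all 9 arrays. The remaining one, TRIB1, a pseudokinase, was at -2.24 ± 0.59 (limma adjusted p = 0.0460) and is named after its value was seen, to complete the count.

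Of the MAP kinase phosphatases and ERK feedback genes, to which DUSP1 is related by function, 0 of 13 rose and 3 fell, with a median ratio of -0.38 and 12 of 13 fitted ratios below 0. SPRY1, an inhibitor of receptor signalling to ERK, was at -0.71, -1.09 and -1.71 at 60 days (-1.17 ± 0.31, limma adjusted p = 0.0481). The Cy5 signals of DUSP4 and DUSP7, phosphatases of ERK, were not well above background on any array of 60 days, and their 120-day signals were on 2 of 3. The measured mean level of DUSP4 was 1.30-fold lower at 60 than at 120 days (7.53 and 7.91, limma adjusted p = 0.0097). That of DUSP7 was 1.35-fold lower (7.28 and 7.71, limma adjusted p = 0.0397). The intervals of the fitted ratios were -0.50 to -0.26 for DUSP4 and -0.68 to -0.18 for DUSP7. Both levels at 60 days are only bounds, and with unswapped dyes these folds are open to dye bias. The list of MAP kinases and upstream kinases also held CREB1, ATF1 and RPS6KA3, which act downstream of MAP kinases. Of its 23 measured genes 0 rose and 1 fell: MAP3K1, which activates the JNK branch (-0.93 ± 0.23, limma adjusted p = 0.0394).

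Of the SGK1 relatives and glucocorticoid response genes, 2 of 13 rose and 2 fell, with a median ratio of -0.10. NR3C1, the glucocorticoid receptor, was higher at 60 days, with ratios of 2.78, 1.48 and 2.23 (2.16 ± 0.41, limma adjusted p = 0.0201). It was above 0 on all 9 arrays, with 1.53, 3.04 and 3.39 at 30 days, with 1.86, 0.87 and 2.20 at 90 days, so 60 days did not stand apart from the other days. FKBP5, a glucocorticoid-induced co-chaperone, was lower (-1.21 ± 0.30, limma adjusted p = 0.0402). It was below 0 on 8 of 9 arrays, with fitted ratios of -1.07 at 30 days and -0.72 at 90 days, so 60 days did not stand apart. FOXO1, a transcription factor that SGK1 and AKT phosphorylate, was higher at 60 days, with ratios of 1.77, 1.94 and 1.13 (1.61 ± 0.43, limma adjusted p = 0.0469). Its ratios were 0.87, -1.04 and -0.76 at 30 days, with -0.97, 0.47 and 0.59 at 90 days, and all arrays of 60 days were above those. RICTOR, part of the complex that phosphorylates SGK1, was lower by a small amount (-0.76 ± 0.19, limma adjusted p = 0.0407) and below 0 on all 9 arrays.

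None of the 11 MYC partners and antagonists passed at 60 days, and 9 of the 11 fitted ratios were below 0, with a median of -0.33. The smallest p-values belonged to MXD3, a MYC antagonist (-0.33 ± 0.09, limma adjusted p = 0.0557), and MGA, a MAX partner (-0.42 ± 0.12, limma adjusted p = 0.0588).

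For 4 members the genes with the most similar ratios over the 9 arrays were looked up among 14280 others. This is a description, in which arrays may share 120-day RNA. For FOS they were GNAL (r = 0.93), GK5 (r = 0.93) and LYZ1 (r = 0.91). For MYC they were VAV1, FCGR2 and SLC24A6, each with r = 0.97. For SGK1 they were PQLC3 (r = 0.96), PTGER4 (r = 0.96) and LOC786350 (r = 0.95), and for JUNB UACA (r = 0.93), LYG2 (r = 0.92) and EMILIN1 (r = 0.90).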

How the data were processed

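Per the labels, extracted RNA went through 2 rounds of T7 amplification and was labelled chemically with Cy5 (30, 60 or 90 days) or Cy3 (120 days), then hybridised to a bovine array. The authors deposited 1 file per array with mean and median spot intensities and local background, not normalised. A deposited file of log2 values per probe was set against the arrays. Its columns correlated with their own arrays at -0.76 to 0.72, and 6 of 9 matched an array of another day best. Of these, 30 days replicate 1 matched the array of 60 days replicate 1 (r = 0.93). The column of 30 days replicate 3 matched 60 days replicate 2 (r = 0.93), and 60 days replicate 2 matched 90 days replicate 3 (r = 0.89). The 1 column that matched its own array best did so at r = 0.07. The 2 sources thus disagree on the day of some arrays. The centring of these values is near 0 (column medians -0.02 to 0.03), while their normalisation and direction stay unknown. It was not used further, so the days rest on the array files as named.

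Mean intensities were corrected with normexp (offset 50) and loess-normalised within arrays in limma 3.58.1 (R 4.3.3, the package data.table, version 1.17.8), with control and flagged spots at weight 0. A probe counted as above background where its signal exceeded the mean plus 2 SD of the 153 negative control spots, and was kept if either channel did so on 3 or more arrays (38823 of 43794 probes, 88.6%). Levels were taken per channel after Aquantile normalisation. Gene symbols came from the platform annotation (1 symbol for 21790 probes). One limma model of 9 arrays gave 1 coefficient per day, with 6 residual and 1.35 prior degrees of freedom, and p-values were adjusted over all kept probes. The fit was tested on simulated ratios of independent arrays with added effects at 60 days, and the steps before it were not. The number of arrays limits the precision, and the comparisons with 120 days may share 120-day RNA.

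Members and gene lists were chosen with earlier results of these data known. Named were all members and, per list and day, up to 4 called genes with the smallest p-values (else the 2 smallest). The genes of like pattern are the 3 highest r. Alternatives were other background corrections and offsets, normalisations, filters, pixel medians, probe averages, eBayes settings, array weights, blocks, covariates, fewer arrays and each array left out.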

Additional observations from a re-analysis of the deposited data

How the results depend on the processing

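The count of members called at 60 against 120 days, 2 in the reported fit, was recomputed under 24 alternatives, 23 planned and 1, without the 3 arrays of high macrophage markers, chosen after seeing the data. It was 4 with a normexp offset of 16 (FOS, MYC, DUSP1 and SGK1). It was 1, SGK1, with no background correction, median centring in place of loess, median pixel signals, the replicate number as a block, or without the 3 arrays of high macrophage markers. It was 0 when only the arrays compared were fitted and with the granulosa marker median as a covariate. Leaving out 1 array gave 0 to 2, with 0 without 60 days replicate 1 or replicate 3; such a fit assumes that the 2 arrays left vary like the other days. Under the other settings it was 2, of which array weights and the macrophage covariate called MYC and SGK1, and the mean of all probes called SGK1 and IER2. In the other comparisons the count of members called was 0 under every alternative.

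SGK1 was called at 60 days under 20 of the 24 alternatives (log2 -2.83 to -2.19, limma adjusted p = 0.00862 to 0.0828), FOS under 6, MYC under 5, and DUSP1 and IER2 under 1 each. No called member changed its direction. Of 1440 member values over the alternatives and the 6 comparisons, called or not, 67 changed sign, all of them uncalled. The second IER2 probe was called under 19 of 23 alternatives, the second FOSB probe under 10 and the third under 8.

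Over all probes, 5541 were called at 60 days. The count was 2633 without background correction, 612 with median pixel signals, 1704 with the replicate block and 1975 with the granulosa covariate. It was 706 without the arrays of high macrophage markers and 0 with only the arrays compared. The mean of probes per gene called 1366, a count of genes, beside 1885 genes by 1 probe each in the reported fit. Without a single array of 60 days the count of probes was 382, 3042 or 233 (replicates 1, 2 and 3), and without 30 days replicate 3 it was 3456. The cause of these shifts was not tested. Arrays of like number were not paired: their deviations correlated at -0.69 to 0.51. They were over 0.1 in 4 of 9 pairs, beside 7 of 18 pairs of other number. Deviations of arrays of 1 set correlated at 0.34 to 0.58 in set A, 0.42 to 0.51 in set B and -0.30 to 0.39 in set C. The reported fit still took all 9 arrays as independent. With the number as a block, SGK1 was the 1 member called at 60 days. The day's signal of JUN, DUSP4 and DUSP7 at 60 days was not above background on any of 3 arrays, so those levels are bounds. The day's signal of the third FOSB probe was above background on 1 of 3. Without 60 days replicate 2 the median ratio of the members was -0.40, beside -1.48 to -0.94 under the other 23 alternatives.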
